A study of Mus musculus with 16 samples.

Results

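The genes described here are 10 genes of phagocytic macrophages: Gpnmb, Trem2, Spp1, Cd68, Ms4a6d, Lgals3, Tyrobp, Apoe, Fabp5 and Cd36. They were selected on the normalized intensities of these same arrays, around the macrophage genes with the largest rise after cardiotoxin, and every probe whose symbol in the deposited table of all samples matched one of them was taken. This gave 15 probes among 25697, for 10 of the 18097 genes in the table. Of these, 13 probes of 9 genes were detected (detection p under 0.05) on at least 3 arrays and entered the fit across 14763 such probes. RNA of whole hindlimb muscle from female mice was hybridised to Illumina bead arrays 2 days after surgery. The mice of 1 group (SCI+CDTX) received a spinal cord injury (SCI) between vertebrae T12 and T13 and an injection of cardiotoxin (CDTX), a snake toxin that destroys muscle fibres, into the muscle. The SCI+Saline group had the same injury with a saline injection. The Sham+CDTX and Sham+Saline groups had sham surgery with the toxin or with saline. Each group had 4 samples, numbered without a statement that each came from its own animal, so p-values measure the spread between these samples. The series asks which genes accompany neurogenic heterotopic ossification, the formation of bone in muscle after central nerve injury, which its design text reports only for the SCI+CDTX condition at this toxin-injured site. Strain and age are not given in the sources used here.

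Macrophages that take up dead cells pass the cargo to lysosomes and store or export the lipid. TREM2 is a lipid-sensing receptor that signals through the adaptor TYROBP (DAP12), GPNMB is a membrane glycoprotein of phagosomes and lysosomes, and osteopontin, the product of Spp1, is a secreted phosphoprotein that binds CD44 and integrins and is also a protein of bone matrix. CD68 is a lysosomal membrane glycoprotein and galectin-3 (Lgals3) a sugar-binding lectin. Apolipoprotein E carries lipid out of the cell, FABP5 carries fatty acids within it, CD36 takes up oxidised lipid, and MS4A6D is a membrane-spanning protein of myeloid cells. In injured muscle such cells clear necrotic fibres before regeneration.

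Mean intensity per array before normalization was 230 to 277 in Sham+Saline, 321 to 335 in SCI+Saline, 325 to 339 in Sham+CDTX and 320 to 373 in SCI+CDTX. Detected probes per array were 11114 to 11850, 11555 to 12787, 13221 to 13569 and 13122 to 13694, in the same order. Sham+Saline, the baseline of both comparisons made against it, was thus the dimmest group. Member probes were read from 20 to 69 beads per array, so that the number of arrays limits the precision. No pair of arrays was identical. The labels state that SCI+CDTX replicate 2 was left out of the authors' final analysis, and it was left out of the fit here, leaving 15 arrays. All SCI arrays lay on 1 slide and all sham arrays on the other, so surgery and slide cannot be told apart, whereas the comparisons of CDTX with saline lie within a slide. On each slide the array labels run from A to D for CDTX and from E to H for saline. CDTX and place on the slide therefore cannot be told apart either. Muscle fibre markers (10 genes, among them Acta1 and Ckm) summed to between 122680 and 147647 normalized intensity units on every array. Of 14 macrophage and monocyte markers 13 were measured. Their sum was 2263 to 3618 in Sham+Saline, 2001 to 5153 in SCI+Saline, 15280 to 18519 in Sham+CDTX and 12831 to 18557 in SCI+CDTX, with Itgam and Cx3cr1 not detected in either saline group. The sum of 7 neutrophil markers was 11691 on the array Sham+Saline 4 against 197 to 243 on the other Sham+Saline arrays, and 13427 on SCI+Saline 4 against 2190 to 4064 on the other SCI+Saline arrays. These 2 arrays therefore stand apart in their groups, and the members' differences between the saline groups were also computed without them. In whole muscle, more cells of a type and more RNA per cell cannot be told apart.

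**Figure D1:**
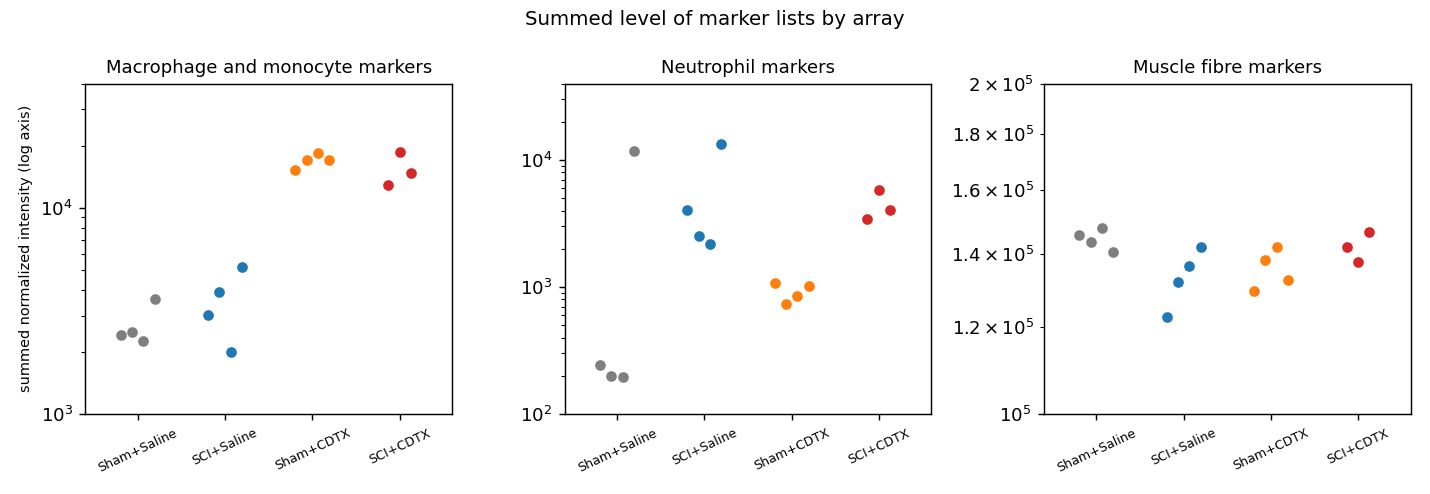
Summed normalized intensity (log axis) of macrophage and monocyte, neutrophil and muscle fibre markers, one point per array in the 4 groups. Macrophage sums lie between 12831 and 18557 with CDTX and at or below 5153 with saline, and 1 array of each saline group has a far higher neutrophil sum than the others, at 11691 and 13427.

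Gpnmb is represented by 4 probes, each 50 bases long. Their first 30 bases are shown because the probes gave different sizes of change for the same gene.
ILMN_2648669: cctgagctcctgacaaaattataatgggcc
ILMN_2614655: gactgtctttcgaagatacggccgggcata
ILMN_2918882: ttccaagtgaccctggtaagggaactgtct
ILMN_1236420: ctgctggttccaggacaagaatgagcaagg
They are listed at transcript positions 2204, 728, 3513 and 3307, the 3513 one on an older version of the transcript record, and all at chromosome 6 band B2.3. Their GC content lay between 48% and 56%. The single Trem2 probe, listed at transcript position 917 on chromosome 17, and the single Spp1 probe, at position 1266 on chromosome 5, start as follows.
Trem2 ILMN_2992709: cccctcctccaccaagacttctgtttctgc
Spp1 ILMN_2690603: gttgtttcatgcaaacaccgttgtaaccaa

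The 250 bases before the transcript start of these 3 genes are given because the genes moved together with CDTX. The RefSeq promoter table (GRCm38.p6) held 10 such windows for 7 of the 10 genes. Capitals mark 5 motifs searched on both strands: TGANTCA (an AP-1 type site), GAGGAAG (an Ets or PU.1 type core), CACGTG and CATGTG (E-boxes bound by the MITF and TFEB family) and TATAAA (the TATA box).
Gpnmb, chr6:49036268-49036517, plus strand: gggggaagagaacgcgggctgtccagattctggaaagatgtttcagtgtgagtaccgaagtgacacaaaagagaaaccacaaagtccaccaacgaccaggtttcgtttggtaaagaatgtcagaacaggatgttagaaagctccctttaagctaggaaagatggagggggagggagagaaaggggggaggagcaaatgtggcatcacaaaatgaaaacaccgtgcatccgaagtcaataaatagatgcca
Trem2, chr17:48346151-48346400, plus strand: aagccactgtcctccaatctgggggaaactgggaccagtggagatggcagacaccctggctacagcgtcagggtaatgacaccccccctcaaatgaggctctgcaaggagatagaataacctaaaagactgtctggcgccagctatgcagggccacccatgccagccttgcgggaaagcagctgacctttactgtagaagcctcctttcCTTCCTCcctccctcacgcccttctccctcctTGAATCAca
Spp1, chr5:104434861-104435110, plus strand: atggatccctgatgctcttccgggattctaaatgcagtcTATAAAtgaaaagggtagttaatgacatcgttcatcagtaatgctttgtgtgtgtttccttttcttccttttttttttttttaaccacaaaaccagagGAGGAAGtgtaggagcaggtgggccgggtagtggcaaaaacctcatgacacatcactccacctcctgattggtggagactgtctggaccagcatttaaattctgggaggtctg
The Trem2 window held GAGGAAG on the reverse strand 41 to 35 bases before the start and TGAATCA 9 to 3 bases before it. Spp1 has a second listed start, whose window (chr5:104435942-104436191) held none of the motifs. The Spp1 window shown held TATAAA 211 to 206 bases and GAGGAAG 113 to 107 bases before the start. The Gpnmb window held none of the 5 letter strings. Over all 32851 windows of this length, 6.75% held TGANTCA, 10.6% GAGGAAG, 6.02% CACGTG, 12.3% CATGTG and 12.4% TATAAA. Among the 7 genes, TGANTCA was found for Cd68 and Trem2, GAGGAAG for Spp1 and Trem2, TATAAA for Apoe and Spp1, and neither E-box for any.

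Gpnmb was the member with the largest difference between Sham+CDTX and Sham+Saline. On the log2 scale of normalized intensity, its probe ILMN_2648669 read 7.35, 6.60, 7.04 and 6.47 in Sham+Saline, 8.80, 9.69, 8.68 and 10.58 in SCI+Saline, 12.65, 12.79, 13.06 and 12.64 in Sham+CDTX, and 12.53, 12.85 and 12.55 in SCI+CDTX. The saline groups did not overlap each other, and both CDTX groups lay above every saline array. The second Gpnmb probe, ILMN_2614655, was not well above background on any of the 4 Sham+Saline arrays (log2 mean 4.41 ± 0.13, SD, n = 4). It was detected on 3 of 4 SCI+Saline arrays (5.45 ± 0.73), on all Sham+CDTX arrays (8.56 ± 0.47) and on all 3 SCI+CDTX arrays (8.09 ± 0.33). ILMN_2918882 was detected on 1 of the 8 saline arrays and on all 7 CDTX arrays, where it read 5.66 ± 0.20 (n = 3) in SCI+CDTX and 6.38 ± 0.13 (n = 4) in Sham+CDTX. ILMN_1236420 was detected on none of the saline arrays and on all 7 CDTX arrays, at 4.88 ± 0.20 in SCI+CDTX and 5.26 ± 0.33 in Sham+CDTX. All 4 probes had their highest mean in Sham+CDTX and their lowest in Sham+Saline. For ILMN_2918882 and ILMN_1236420 the saline means lay near background, so the order of their saline groups carries no information.

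**Figure D2:**
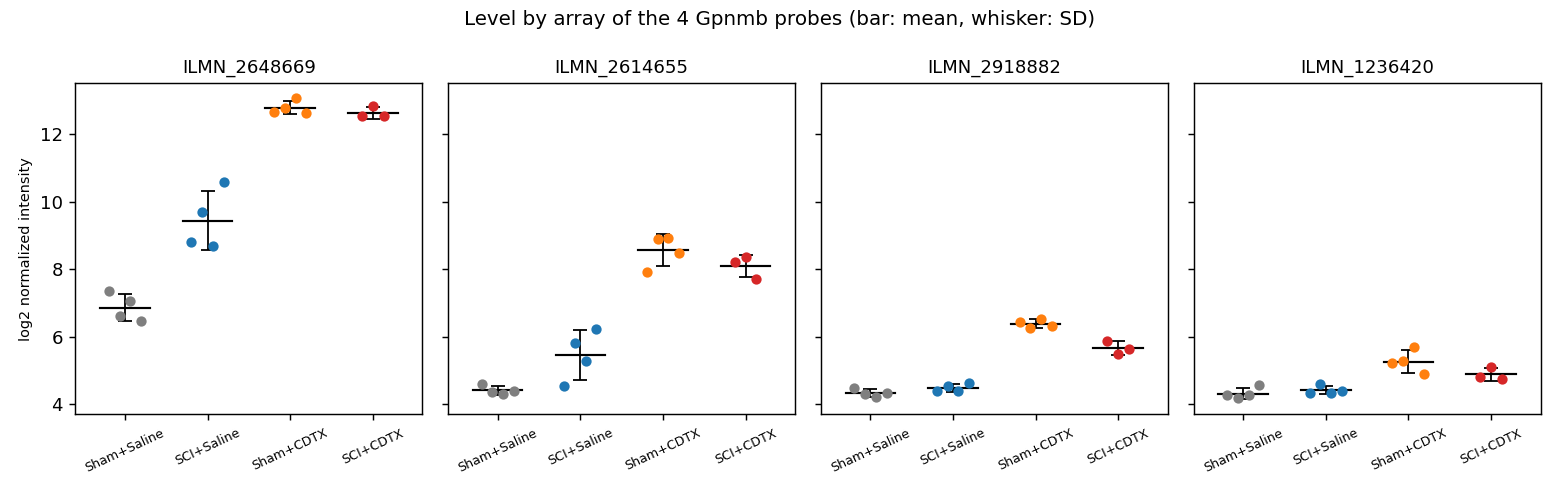
Level on each array of the 4 Gpnmb probes in log2 normalized intensity, one point per array, with the group mean (bar) and SD (whisker). ILMN_2648669 rises from a mean of 6.86 in Sham+Saline to 9.44 in SCI+Saline and 12.79 in Sham+CDTX, while ILMN_2918882 and ILMN_1236420 have means between 4.31 and 4.48 in both saline groups.

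Trem2 and its adaptor Tyrobp differed in how much the saline arrays scattered. Trem2 (ILMN_2992709) read 5.58, 4.61, 4.35 and 5.04 in Sham+Saline, where 2 of 4 arrays detected it, and 4.40, 7.36, 5.31 and 7.86 in SCI+Saline, where 3 of 4 did. With CDTX it read 10.33, 9.89, 10.10 and 10.02 after sham surgery and 9.42, 9.82 and 9.40 after SCI. SCI+Saline replicates 2 and 4 were high and replicates 1 and 3 lay within the Sham+Saline range. Tyrobp (ILMN_2867147, chromosome 7) was detected on every array, at 5.00, 6.21, 5.30 and 6.87 in Sham+Saline and 7.24, 7.70, 5.71 and 8.25 in SCI+Saline. It read 9.85, 9.15, 9.66 and 9.48 in Sham+CDTX and 9.37, 10.27 and 9.79 in SCI+CDTX. The saline groups overlapped for both genes, and no CDTX array fell among them.

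Spp1 varied most within the saline groups. Its probe read 7.43, 6.23, 6.79 and 10.23 in Sham+Saline and 8.65, 11.26, 7.60 and 11.31 in SCI+Saline, a range of 4.00 and 3.70 log2 units. In Sham+CDTX it read 12.96, 12.72, 13.07 and 12.84, and in SCI+CDTX 12.89, 13.48 and 13.22, a range of 0.35 and 0.59. The high Sham+Saline value was that of replicate 4, the array with the neutrophil marker sum of 11691. The part of those markers' cells in the Spp1 level was not tested.

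The lysosomal glycoprotein Cd68 and the lectin Lgals3 had the most similar profiles of all 36 pairs of member genes over the 15 arrays, with a root mean square difference of 0.46 log2 units after each probe's mean was subtracted. The arrays share their libraries, so this is a description. Cd68 (ILMN_2689785, chromosome 11) read 6.75, 5.54, 5.68 and 6.56 in Sham+Saline, 7.24, 8.49, 7.30 and 8.76 in SCI+Saline, 10.93, 10.64, 10.84 and 10.54 in Sham+CDTX, and 10.50, 11.19 and 10.39 in SCI+CDTX. Lgals3 (ILMN_1223317, chromosome 14) read 9.29, 8.65, 8.60 and 9.78 in Sham+Saline, 11.04, 11.50, 10.96 and 12.66 in SCI+Saline, 13.42, 13.32, 13.48 and 13.34 in Sham+CDTX, and 14.00, 14.09 and 14.03 in SCI+CDTX. For Lgals3 the 4 groups did not overlap on the 15 arrays, in the order Sham+Saline, SCI+Saline, Sham+CDTX, SCI+CDTX. The array left out, SCI+CDTX replicate 2, read 13.05 for Lgals3 when all 16 arrays were normalized together. This lay below the Sham+CDTX range of 13.33 to 13.48 in that normalization. For Cd68 the saline groups were separate from each other and from CDTX, and the CDTX groups overlapped. The farthest pair was Spp1 and Apoe, at 1.82.

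Ms4a6d was read by 2 probes on chromosome 19 that ranked the CDTX groups differently. ILMN_1241695 had means of 6.21 ± 0.51 in Sham+Saline, 7.94 ± 1.61 in SCI+Saline, 11.21 ± 0.17 in Sham+CDTX (n = 4 each) and 10.43 ± 0.34 in SCI+CDTX (n = 3), and all 3 SCI+CDTX arrays lay below all Sham+CDTX arrays. ILMN_2602352 had means of 4.88 ± 0.54, 6.54 ± 1.56, 9.21 ± 0.14 and 9.37 ± 0.43 in the same order, and its CDTX groups overlapped.

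The lipid carriers Apoe and Fabp5 moved less than the genes above. Apoe (ILMN_1216042, chromosome 7) read 9.22, 9.16, 8.15 and 8.37 in Sham+Saline, 9.22, 9.57, 9.93 and 9.61 in SCI+Saline, 10.87, 11.44, 11.10 and 10.79 in Sham+CDTX, and 11.11, 11.20 and 10.89 in SCI+CDTX. Its saline groups touched at 9.22 and the CDTX groups overlapped. Fabp5 has 2 probes on chromosome 3 that share 33 of their 50 bases. They are shown by the 30 bases at the end where they differ, with the 17 bases of each probe's own in capitals.
ILMN_1235908: GCCCCGTCATTTAAGCTtgccttaaatcgt
ILMN_2685290: ttgtcaactcaatAATTGAGACTATTCCTA
ILMN_1235908 had means of 4.71 ± 0.17 in Sham+Saline, 5.53 ± 0.77 in SCI+Saline, 7.41 ± 0.43 in Sham+CDTX (n = 4 each) and 7.05 ± 0.19 in SCI+CDTX (n = 3). ILMN_2685290, shifted by 17 bases and with a GC content of 32% against 40%, was detected on 0 of 16 arrays and did not enter the fit. The Cd36 probe (ILMN_1232470, chromosome 5) was detected on 3 of 16 arrays, all of SCI+CDTX, 1 of them the array left out, and did not enter the fit either. Its log2 values lay between 4.26 and 4.61 on all 15 arrays, so no level of the scavenger receptor could be given.

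**Figure D3:**
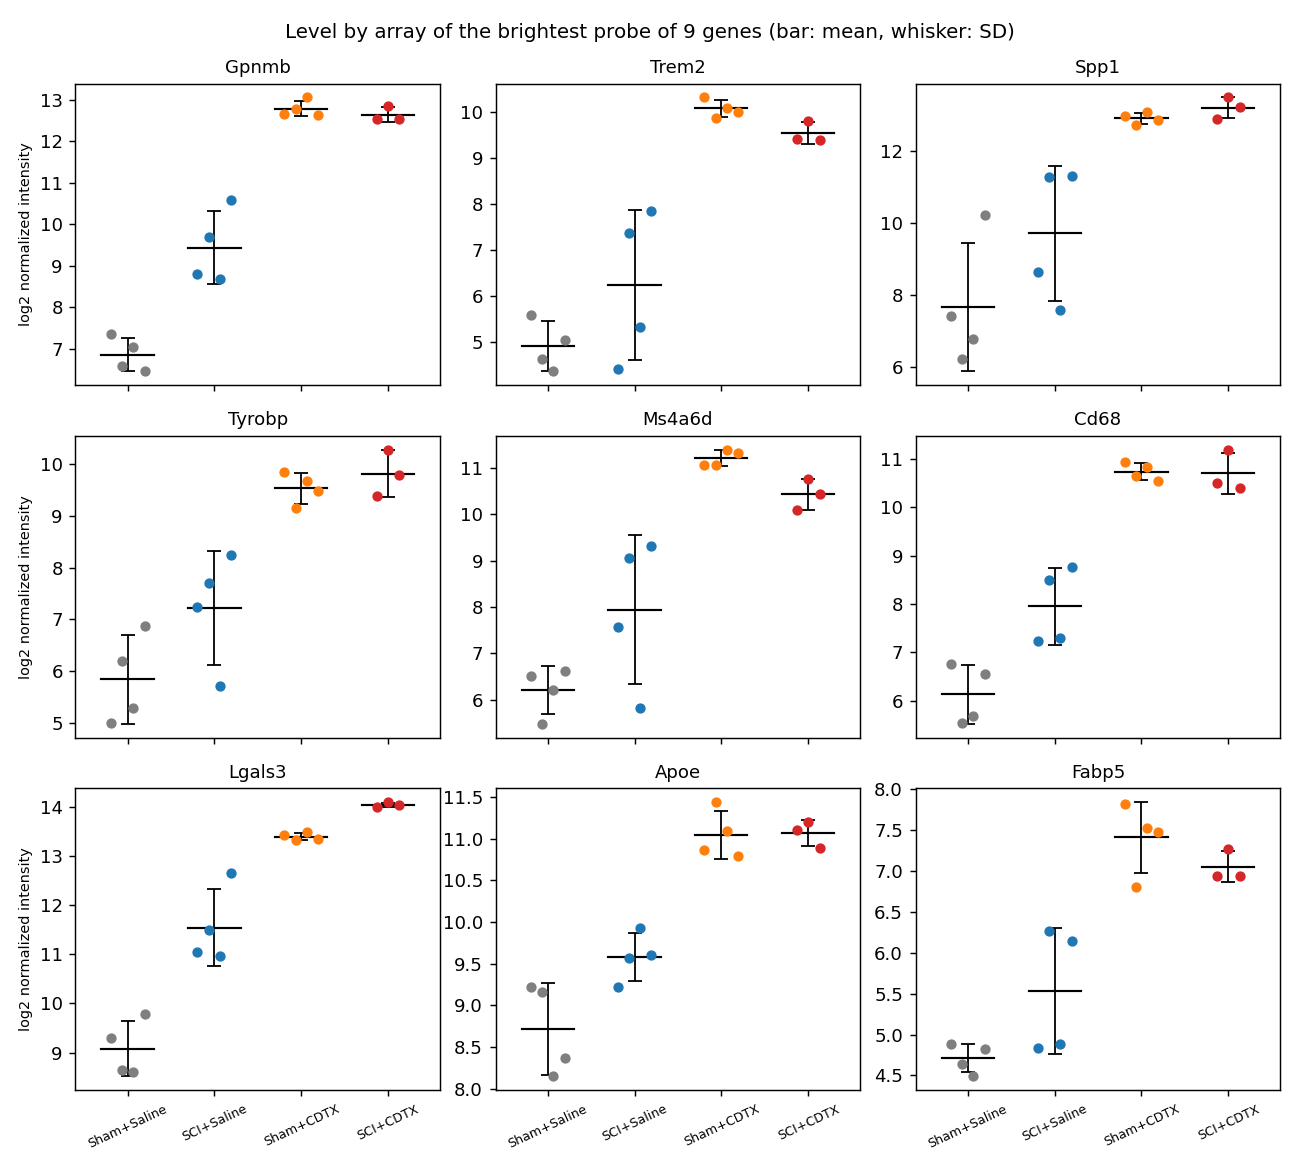
Level on each array, in log2 normalized intensity, of the brightest probe of the 9 genes that entered the fit, one point per array, with the group mean (bar) and SD (whisker). Both CDTX groups lie above every saline array in all 9 panels, and SCI+Saline spreads widely, for Spp1 from 7.60 to 11.31.

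In the SCI groups 1 array was the highest for most genes. SCI+CDTX replicate 3 was the highest of its group for 9 of 9 genes, each by its brightest probe, and SCI+Saline replicate 4 for 7 of 9. No sham array led its group as often. Sham+CDTX replicates 1 and 3 were highest for 4 genes each, and Sham+Saline replicates 1 and 4 for 5 and 4. SCI+Saline replicate 4 also had the highest neutrophil sum of its group, and SCI+CDTX replicate 3 the highest macrophage sum (18557) and neutrophil sum (5809) of its group. Whether these markers' cells account for the order was not tested. The array left out by the authors, SCI+CDTX replicate 2, lay below the other SCI+CDTX arrays for 11 of 13 probes when all 16 arrays were normalized together. It lay above every SCI+Saline array for 11 of 13. For Gpnmb ILMN_2648669 it read 11.06 against 12.55 to 12.86 on the other SCI+CDTX arrays, and for Spp1 12.94, within their range of 12.90 to 13.48.

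In muscle injected with saline, SCI was accompanied by higher levels of these genes. In SCI+Saline against Sham+Saline, limma with Benjamini-Hochberg adjustment over all 14763 probes called 10 of 13 member probes, of 8 genes, higher and 0 lower (11 higher and 0 lower at an unadjusted p under 0.05). Over all probes 14.8% were called higher and 14.6% lower. The median log2 fold change was 1.38 over the member probes and -0.01 over all probes. The groups did not overlap for 3 member probes, all higher (Gpnmb ILMN_2648669, Cd68 and Lgals3), against 11.7% of all probes. This comparison shares its Sham+Saline arrays with the comparison on which the genes were chosen. With arrays scaled by their median in place of quantile normalization, the median over all probes was 0.17, 86.4% of called probes were higher in place of 50.3%, and 11 member probes were called.

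Gpnmb, Lgals3, Cd68 and Apoe were the genes whose call did not depend on a single array. Gpnmb ILMN_2648669 was 2.58 higher on the log2 scale in SCI+Saline (SE 0.30, adjusted p = 4.55e-06 by limma), a 5.97-fold difference. Lgals3 was 2.46 higher (SE 0.30, adjusted p = 5.46e-06), or 5.50-fold. Cd68 was 1.82 higher (adjusted p = 0.000319), or 3.53-fold. Apoe was 0.86 higher (adjusted p = 0.00724), or 1.81-fold. These 4 probes kept their call in all 26 alternative fits, each array left out in turn among them. The second Gpnmb probe, ILMN_2614655, was 1.05 higher (adjusted p = 0.0089) and at least 1.59-fold higher when Sham+Saline is set at its detection limit, and it lost the call only without background correction (0.33, adjusted p = 0.161). The other Gpnmb probes were at 0.16 (95% confidence interval -0.11 to 0.44) and 0.09 (-0.24 to 0.43) and were not called.

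For the receptor pair and osteopontin the call changed with single arrays or with settings of the fit. Trem2 was 1.34 higher (SE 0.51, 95% interval 0.27 to 2.40), not past the threshold (adjusted p = 0.0551 by limma). Without SCI+Saline replicate 1 it was called (1.95, adjusted p = 0.00212), likewise without SCI+Saline replicate 3 (1.64, adjusted p = 0.027) and without Sham+Saline replicate 1 (1.58, adjusted p = 0.0411). It was smaller without SCI+Saline replicate 4 (0.79, adjusted p = 0.191), SCI+Saline replicate 2 (0.96, adjusted p = 0.196) or Sham+Saline replicate 3 (1.16, adjusted p = 0.136). Its adaptor Tyrobp was 1.38 higher (adjusted p = 0.0207). The Tyrobp call was lost without any 1 of SCI+Saline replicates 2 and 4 and Sham+Saline replicates 1 and 3, with adjusted p between 0.0632 and 0.0766. It was also lost without background correction and without a detection filter (adjusted p = 0.0633 and 0.0813). A trended and robust variance or a fit of only the compared groups lost it too (0.0667 and 0.0751). Spp1 was 2.04 higher (SE 0.75, adjusted p = 0.0464), and this call was lost in 18 of 26 alternative fits. Among these were the fits without any 1 CDTX array, where the difference stayed at 2.04 to 2.05 (adjusted p between 0.0547 and 0.0567). Without Sham+Saline replicate 4, the array with the high neutrophil sum, the Spp1 difference was 2.88 (adjusted p = 0.00191), and without SCI+Saline replicate 4 it was 1.5 (adjusted p = 0.139). With both of these arrays left out, a fit added after seeing the data, it was 2.35 (adjusted p = 0.00366), Trem2 0.85 (adjusted p = 0.197), and 9 of 13 member probes were called, Fabp5 (0.67, adjusted p = 0.108) no longer among them.

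The 2 Ms4a6d probes agreed in size, at 1.73 (adjusted p = 0.0134 by limma) and 1.66 (adjusted p = 0.0157). Both calls were lost without SCI+Saline replicate 2, at 1.35 (adjusted p = 0.0592) and 1.37 (adjusted p = 0.0629). Fabp5 was 0.82 higher (adjusted p = 0.0334), and lost the call without SCI+Saline replicate 2 (0.59) or 4 (0.62) and without Sham+Saline replicate 2 (0.82) or 3 (0.76), with adjusted p between 0.0646 and 0.131. Without SCI+Saline replicate 2, 5 of 13 member probes were called in all. A fit to the saline arrays alone, which does not borrow the smaller spread of the CDTX arrays, also called 5 (Gpnmb ILMN_2648669 and ILMN_2614655, Cd68, Lgals3 and Apoe).

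**Figure D4:**
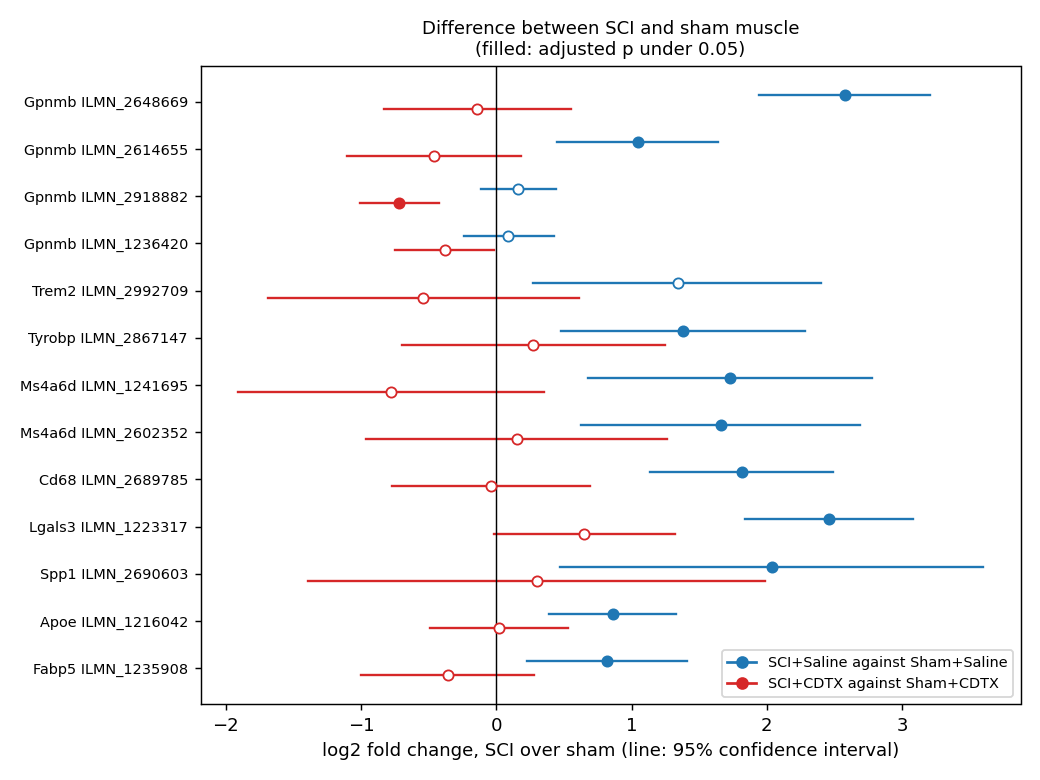
Difference between SCI and sham muscle for the 13 probes as log2 fold change (point) with its 95% confidence interval (line), with saline in blue and with CDTX in red. Filled points passed an adjusted p under 0.05. In saline muscle 10 probes are filled and all 13 lie above 0, and in CDTX muscle 1 is filled, below 0. Gpnmb ILMN_2918882 and ILMN_1236420 read near background in saline muscle.

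In muscle injected with CDTX, most of these genes stood at levels whose difference between SCI and sham could not be told from 0. In SCI+CDTX against Sham+CDTX, limma called 0 of 13 member probes higher and 1 lower (0 higher and 2 lower at an unadjusted p under 0.05). Over all probes 14.9% were called higher and 14.9% lower. The median log2 fold change was -0.14 over the member probes and 0.01 over all probes. The call was Gpnmb ILMN_2918882, at -0.72 (SE 0.14, adjusted p = 0.000756), with all SCI+CDTX arrays below all Sham+CDTX arrays, and it held in all 26 alternative fits. The other 3 Gpnmb probes were at -0.14 (95% interval -0.83 to 0.55), -0.46 (-1.10 to 0.18) and -0.38 (-0.75 to -0.02) and were not called. The last of these, the dim ILMN_1236420, was called lower without Sham+CDTX replicate 4 (-0.5, adjusted p = 0.0395 by limma). Spp1 was at 0.30 (-1.39 to 1.99), Cd68 at -0.04 (-0.77 to 0.69), Apoe at 0.02 (-0.49 to 0.53), Tyrobp at 0.27 (-0.70 to 1.25) and Fabp5 at -0.36 (-1 to 0.28). These intervals include differences of up to 1.99 log2 units, so they do not show equal levels. This comparison shares its Sham+CDTX arrays with the one that chose the genes. The neutrophil sum was 3429 to 5809 in SCI+CDTX and 731 to 1081 in Sham+CDTX, and its part in these levels was not tested. With each slide normalized separately, the median over all probes was 0.10, 66.6% of called probes were higher in place of 49.9%, and 1 member probe was called.

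For 3 further probes the call in CDTX muscle depended on which arrays set the spread. Lgals3 was 0.65 higher in SCI+CDTX, with no overlap between groups on the fitted arrays (adjusted p = 0.142 by limma). Trem2 was 0.54 lower and Ms4a6d ILMN_1241695 was 0.78 lower on the log2 scale, both with all SCI+CDTX arrays below all Sham+CDTX arrays (log2 fold changes of -0.54 and -0.78, adjusted p = 0.527 and 0.317). Groups that do not overlap made up 22% (higher) and 20.6% (lower) of all probes in this comparison. Fitted on the 7 CDTX arrays alone, all 3 were called, with adjusted p = 0.000665 for Lgals3, 0.0112 for Trem2 and 0.00219 for Ms4a6d ILMN_1241695. The authors' deposited table gives difference p-values of 0.00138 for Lgals3, 0.02899 for Trem2, 0.00136 for Ms4a6d ILMN_1241695 and 0.00033 for Gpnmb ILMN_2918882 between these groups, and 0.47309 for Gpnmb ILMN_2648669. The test behind them and any correction for multiple testing are not given in the sources used here. Lgals3 was also called in the fit of all groups without SCI+Saline replicate 4 (adjusted p = 0.034). The second Ms4a6d probe, ILMN_2602352, was at 0.15 (-0.96 to 1.26) and was called in none of the 26 alternative fits.

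A score of how differently 2 probes of the same gene read on an array, taken over 2797 genes, moved with this comparison. It was 0.35 to 0.39 on the Sham+CDTX arrays, -0.12 to -0.06 on the fitted SCI+CDTX arrays and -0.27 to -0.08 on the saline arrays. The array left out by the authors, SCI+CDTX replicate 2, had a score of 0.28, near that of Sham+CDTX. Among the other arrays only those of Sham+CDTX had a positive score, so the score and that group were nearly the same. A fit with the score as a covariate therefore rests largely on replicate 2 and cannot separate the score from the group. With the score as a covariate over 16 arrays, that array included, 184 of 14955 probes were called higher and 81 lower in this comparison, against 2194 and 2199 of 14763 without it. In that fit Apoe turned from 0.02 to -1.67 (adjusted p = 0.0177), Gpnmb ILMN_2918882 was at -1.23 and still called, and 2 member probes were called. Without a call in either fit, Gpnmb ILMN_2648669 moved from -0.14 to -1.51, Gpnmb ILMN_2614655 from -0.46 to -1.93 and Trem2 from -0.54 to -1.04. The sign turned, also without a call, for Lgals3 (-0.21), Tyrobp (-0.45) and Ms4a6d ILMN_2602352 (-0.43).

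The differences between CDTX and saline chose the genes and are given as a description. In sham mice the log2 fold change of Sham+CDTX over Sham+Saline was 5.92 (SE 0.30) for Gpnmb ILMN_2648669, or 60.7-fold, the second largest of 14763 probes. It was 5.23 (SE 0.75) for Spp1, 5.19 (SE 0.51) for Trem2, 5.00 and 4.34 for the Ms4a6d probes, 4.61 for Cd68, 4.31 for Lgals3, 3.69 for Tyrobp, 2.70 for Fabp5 and 2.33 for Apoe. Among the remaining Gpnmb probes it was 4.15, 2.06 and 0.95. These 3 probes were not well above background on any Sham+Saline array, and the differences correspond to at least 13.7-fold, 3.02-fold and 1.40-fold. The lowest ranks were those of Apoe (250th), Gpnmb ILMN_2918882 (338th) and Gpnmb ILMN_1236420 (1516th). In all 13 probes the groups did not overlap, against 21.5% of all probes higher without overlap. With median scaling the median over all probes in this comparison was 0.32 and 85.1% of called probes were higher in place of 47.3%.

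After SCI the differences between CDTX and saline were smaller for every one of the 13 probes. SCI+CDTX over SCI+Saline was 3.49 (SE 0.81) for Spp1, 3.31 (SE 0.55) for Trem2, 3.20 (SE 0.33) for Gpnmb ILMN_2648669, 2.83 and 2.49 for the Ms4a6d probes, 2.75 for Cd68, 2.58 for Tyrobp, 2.50 for Lgals3, 1.52 for Fabp5 and 1.48 for Apoe. Spp1 ranked 7th, Trem2 17th and Gpnmb 24th among all probes. The difference of the 2 log2 fold changes (SCI minus sham) ran from -2.72 (SE 0.45) for Gpnmb ILMN_2648669 and -2.51 (SE 0.73) for Ms4a6d ILMN_1241695 to -0.84 (SE 0.33) for Apoe and -0.48 (SE 0.24) for Gpnmb ILMN_1236420. It was -1.88 (SE 0.75) for Trem2, -1.86 (SE 0.47) for Cd68, -1.81 (SE 0.43) for Lgals3 and -1.74 (SE 1.10) for Spp1. It was -1.11 (SE 0.63) for Tyrobp. This difference subtracts the comparison on which the genes were chosen, a choice that favours negative values, so it is a description and not a test. With median scaling its median over all probes was -0.24 in place of -0.01. In levels, the SCI+Saline means lay above the Sham+Saline means for all 13 probes, while the CDTX means differed by at most 0.78. For Gpnmb ILMN_2918882 and ILMN_1236420 both saline means lay near background, so these probes do not show a rise with SCI.

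**Figure D5:**
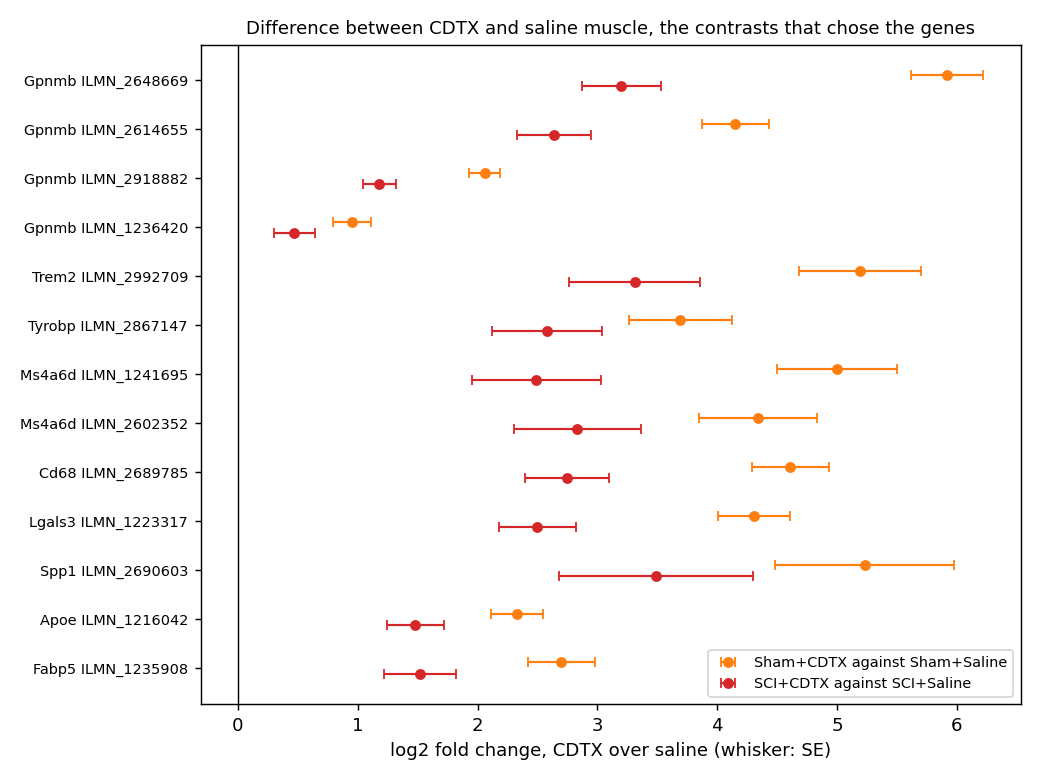
Difference between CDTX and saline muscle for the 13 probes as log2 fold change with its SE (whisker), in sham mice (orange) and after SCI (red). Every probe lies further right in sham mice, Gpnmb ILMN_2648669 at 5.92 against 3.20.

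Of the 5 genes nearest in profile over the 15 arrays to Gpnmb and to Trem2, Lilrb4a and Gal stood in both lists. Nearest to Gpnmb ILMN_2648669 were the chemokine Ccl7 (root mean square difference 0.80 log2 units), the inhibitory receptor Lilrb4a (0.83), the neuropeptide galanin (Gal, 0.84), cathepsin S (Ctss, 0.87) and the chemokine Ccl4 (0.89). Nearest to Trem2 were Gal (0.49), Lilrb4a (0.60), the C-type lectin Clec4d (0.62), Lpxn (0.63) and the lysosomal transporter Slc15a3 (0.64). Nearest to Spp1 were 2 probes listed as Chi3l3 (0.76) and Chil3 (0.90), names of the same chitinase-like protein, with Clec4d (0.77), the Fc receptor chain Fcer1g (0.90) and Ccl4 (0.92). These genes were chosen for their likeness to the members on the same arrays, saline arrays included. Their differences between groups are therefore a description and not a separate test. Among them, Ccl7 (2.68, adjusted p = 0.000487 by limma) and Ctss (1.43, adjusted p = 0.00493) were higher in SCI+Saline than in Sham+Saline with no overlap. Lilrb4a (1.2, adjusted p = 0.0297) and Ccl4 (1.5, adjusted p = 0.0223) passed the threshold with overlapping groups. Both lost it without SCI+Saline replicate 2 (adjusted p = 0.124 and 0.091) or 4 (0.102 and 0.0753) and without Sham+Saline replicate 3 (0.0637 and 0.0508), and Lilrb4a also without Sham+Saline replicate 2 (0.0668) or 4 (0.061). Gal was at 1.09 (SE 0.52, adjusted p = 0.128) and read 6.12 higher in Sham+CDTX than in Sham+Saline (SE 0.52).

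Signalling partners of TREM2 and TYROBP were higher with CDTX and were not called with SCI in saline muscle. Of 17 measured genes of that list, limma called 0 in SCI+Saline against Sham+Saline (1 higher and 1 lower at an unadjusted p under 0.05), with a median log2 fold change of 0.08. With CDTX, 11 of 17 were higher and 2 lower in sham mice (medians 1.22 for the list and -0.04 for all probes), against 23.1% and 25.8% of all probes. The kinase Btk was 2.47 higher (adjusted p = 9.31e-07), and the activating receptor Sirpb1a at least 4.85-fold higher (2.57, adjusted p = 8.15e-05). The receptor Trem1 was lower by 0.60 (adjusted p = 0.0208), with overlapping groups near background (means 4.53 and 5.13). It was detected on 1 of 4 Sham+CDTX and 3 of 4 Sham+Saline arrays. Its call was lost without Sham+CDTX replicate 1 or 3 or Sham+Saline replicate 2 or 4 (adjusted p between 0.0621 and 0.0764). After SCI 12 were higher and 1 (Pik3r1, -1.30) lower with CDTX, against 20.4% and 22.5% of all probes. In SCI+CDTX against Sham+CDTX, Trem3 (1.09) and Vav1 (0.92) were higher and Pik3r1 (-0.99) and Vav3 (-0.49) lower. Where a few called genes of a list are named in full, here and in the lists that follow, they were named after their values were seen.

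Osteopontin receptors differed between the CDTX groups. None of 5 measured genes was called by limma in SCI+Saline against Sham+Saline (2 higher and 0 lower at an unadjusted p under 0.05). The hyaluronan and osteopontin receptor Cd44 was 3.40 higher with CDTX in sham mice (adjusted p = 3.9e-09) and 1.84 higher after SCI (adjusted p = 1.58e-05), and it was lower in SCI+CDTX than in Sham+CDTX (-1.28, adjusted p = 0.000795) with no overlap. The integrin chain Itga5 was lower there too (-0.71, adjusted p = 0.0121), a call lost without SCI+CDTX replicate 1 (-0.56, adjusted p = 0.0746), and Itgb5 was higher (1.29, adjusted p = 0.000237). With the probe score as a covariate none of the 3 was called and Itgb5 turned to -0.22 (adjusted p = 0.823).

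Engulfment receptors and bridging proteins had called genes in both directions. In SCI+Saline against Sham+Saline 2 of 16 were higher and 3 lower (median -0.06), shares near the 14.8% and 14.6% of all probes. Annexin A1 (Anxa1, 0.89, adjusted p = 0.00906) and the scavenger receptor Stab2 (0.70) were higher, and the receptor tyrosine kinase Axl (-1.09, adjusted p = 0.000691), the guanine exchange cofactor Elmo1 (-0.77) and the bridging protein Mfge8 (-0.60) lower. With CDTX 10 were higher and 2 lower in sham mice (23.1% and 25.8% of all probes), and 13 higher and 1 lower after SCI (20.4% and 22.5% of all probes). Stab1 was 2.44 and 3.10 higher and the beta-glucan receptor Clec7a 2.39 and 2.60 higher, in that order. Between the CDTX groups, 7 were higher after SCI (Mfge8 at 1.42 and Elmo1 at 1.21 among them) and 2 lower (Mertk at -0.90 and Gas6 at -0.59), against 14.9% of all probes each way. None of these calls remained with the probe score as a covariate, the fit that leaves 184 higher and 81 lower calls among all probes.

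Lipid handling genes included more higher than lower calls with SCI in saline muscle. In SCI+Saline against Sham+Saline 4 of 14 lipid genes were higher and 1 lower (median 0.25), against 14.8% and 14.6% of all probes. The apolipoprotein Apoc1 (1.25, adjusted p = 0.00222), the lipid droplet coat gene Plin2 (1.06, adjusted p = 0.00323), the cholesterol esterifying enzyme Soat1 (1.03, adjusted p = 0.0125, at least 1.76-fold) and the oxysterol receptor Nr1h2 (0.76) rose, and lipoprotein lipase Lpl fell by 1.18 (adjusted p = 0.000292). With CDTX in sham mice Soat1 was 3.36 higher (at least 8.87-fold) and Plin2 2.27 higher, and 8 of 14 were called higher and 1 lower, against 23.1% and 25.8% of all probes.

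Of 17 lysosomal genes 6 were higher and 0 lower in SCI+Saline (1 lower at an unadjusted p under 0.05 by limma), with a median of 0.15, against 14.8% and 14.6% of all probes. They were the tetraspanin Cd63 (1.75, adjusted p = 1.2e-08), cathepsins D (Ctsd, 1.46, adjusted p = 7.68e-06), S (Ctss, 1.43), L (Ctsl, 0.92) and Z (Ctsz, 0.86), and Hexa (0.55). Cd63 read 10.92 ± 0.15 in Sham+Saline, 12.67 ± 0.16 in SCI+Saline, 12.60 ± 0.06 in Sham+CDTX (n = 4 each) and 12.76 ± 0.10 in SCI+CDTX (n = 3), so that the SCI+Saline mean lay between those of the CDTX groups. With CDTX in sham mice 12 of 17 rose and 0 fell (23.1% and 25.8% of all probes), among them Ctss (4.75, adjusted p = 1.13e-08). Between the CDTX groups 3 were higher and 3 lower after SCI, shares near the 14.9% of all probes each way, with Ctss at -1.25 (adjusted p = 0.019). The Ctss call was lost without SCI+CDTX replicate 1 (adjusted p = 0.0732) or 3 (0.0746) and without Sham+CDTX replicate 1 (0.0603), and with the probe score as a covariate Ctss turned to 0.22 (adjusted p = 0.928).

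Among relatives of the members, 4 of 10 genes were higher in SCI+Saline than in Sham+Saline (Ms4a7 1.15, Lgals1 0.68, Ms4a6b 0.61 and Lgals8 0.56, adjusted p between 0.018 and 0.049 by limma) and 0 lower (0 lower at an unadjusted p under 0.05), against 14.8% and 14.6% of all probes. Ms4a7 lost its call without SCI+Saline replicate 2 or 4 or Sham+Saline replicate 1 or 3 (adjusted p between 0.0575 and 0.0959), and Lgals1 without SCI+Saline replicate 2 or 4 or Sham+Saline replicate 3 or 4 (0.0502 to 0.0911). Fitted on the saline arrays alone, no gene of these 10 was called. Galectin-9 (Lgals9) was 2.97 higher with CDTX in sham mice (adjusted p = 1.01e-08), and lower in SCI+CDTX than in Sham+CDTX (-1.96, adjusted p = 8.47e-06), where Lgals3 was at 0.65 and not called.

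The macrophage and monocyte markers of these libraries moved with CDTX as the members did. With CDTX 11 of 13 were higher and 0 lower, both in sham mice (23.1% and 25.8% of all probes) and after SCI (20.4% and 22.5%). In SCI+Saline against Sham+Saline 1 of 13 (Cd14, 0.71, adjusted p = 0.0477) was called by limma, with a median of 0.24. Of all probes, 14.8% were called higher and 14.6% lower in that comparison. In SCI+CDTX against Sham+CDTX Cd14 (1.85), Cd163 (1.75) and Itgam (0.43) were higher and Cx3cr1 (-1.75), Mrc1 (-1.02) and Mertk (-0.90) lower. These are 3 of 13 each way, against 14.9% of all probes each way. Of 7 neutrophil markers 2 were called in SCI+Saline against Sham+Saline, S100a8 (4.74) and Lcn2 (2.64), both higher, against 14.8% of all probes. The other 5 lay between -0.86 (Mmp9) and 1.52 (S100a9). Without the saline array of highest neutrophil sum in each group, S100a8 was at 6.19, Lcn2 at 3.19 and S100a9 at 1.96. Those arrays were left out for the sum of these same markers, so the values are a description and not a test. With CDTX, 2 of 7 neutrophil markers were higher in sham mice (23.1% of all probes) and 2 after SCI (20.4% of all probes). The part of either cell type in the members' levels was not tested.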

How the data were processed

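Biotin-labelled RNA of 16 mouse muscle samples was read on Illumina bead arrays with GenomeStudio 2011.1, per the submitters' processing notes. The deposited table of all samples gives, per the file headers, a mean bead intensity, a detection p-value and a count of beads per probe. Intensity had not been normalized, and any background step at the scanner is not given in the sources used here. A second deposited table gives the authors' group mean intensity and difference p-values against SCI+CDTX, with that group's replicate 2 left out.

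The intensities of 15 arrays were corrected and normalized with neqc of limma 3.58.1 in R 4.3.3 (normexp background from the detection p-values, quantile normalization, offset 16, log2), which understates changes of dim probes. Probes with a detection p-value under 0.05 on at least 3 arrays were kept. A linear model with 4 group means gave each comparison, with empirical Bayes variances and Benjamini-Hochberg adjustment over 14763 probes, and calls at an adjusted p under 0.05. The script was tested on simulated data. Where no array of a group detected a probe, the fold is a bound against the lowest detected signal of each array.

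The members and gene lists were chosen with earlier results of these data known. Named besides the members were the 5 genes of nearest profile to Gpnmb, Trem2 and Spp1, and from each list the 2 genes of largest difference in SCI+Saline against Sham+Saline and in Sham+CDTX against Sham+Saline, each by its brightest kept probe. Other genes are named where few were called, after their values were seen. Marker lists for lymphocytes, dendritic cells (none of 6 genes kept), muscle precursors, fibroadipogenic progenitors, endothelium and adipocytes were counted as well. Some named genes and lists are not reported here. Symbols were updated through Entrez identifiers in the RefSeq gene table for 23681 of 25697 probes. Coordinates of probes are not printed, since the table names no build. Alternatives covered arrays, scaling, background, filters, variance model, replicate block, a covariate and leaving out each array.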

Additional observations from a re-analysis of the deposited data

Results flagged for a closer look

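For 9 of 20 named genes of the lists around the members, the difference between CDTX and saline was called different after SCI and after sham surgery (limma interaction, adjusted over all probes). The value given is the log2 fold change after SCI minus that after sham surgery. These genes were named for their large differences in SCI+Saline or Sham+CDTX against Sham+Saline, and the interaction subtracts both. That choice favours values of the opposite sign, so the calls are a description and not a test. It was negative for the lysosomal genes Ctss (-2.68, adjusted p = 0.00112), Cd63 (-1.60, adjusted p = 1.53e-05) and Ctsd (-0.92, adjusted p = 0.0165). It was negative too for Ms4a7 (-1.87, adjusted p = 0.0194), Lgals9 (-1.70, adjusted p = 0.000944), Cd44 (-1.56, adjusted p = 0.00278) and Itga5 (-1.21, adjusted p = 0.00368). It was positive for the engulfment receptor Axl (1.2, adjusted p = 0.00875) and for Lpl (0.86, adjusted p = 0.0495). Over all probes the interaction was called higher for 12% and lower for 11.6%, and with median scaling 17.7% of called probes were higher in place of 51% (median -0.24). Of 25 alternative fits, Cd63 kept its call in all 25, between -2.31 and -1.51. Cd44, Ctss, Itga5 and Lgals9 each lost it in 1, the fit with the probe score as a covariate, which called the interaction for 9 probes higher and 34 lower of 14955. Ctsd lost it in 2, Axl in 3, Ms4a7 in 4 and Lpl in 17. In 39 groups of member values tested, no array was flagged as apart from the others by Dixon's test. The test was set for groups of 4, so SCI+CDTX, with 3 fitted arrays, was not among them. With 4 values it has little power, and Spp1 in Sham+Saline was not flagged with values from 6.23 to 10.23.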

How the results depend on the processing

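Of the member probes called in SCI+Saline against Sham+Saline (10), 5 were called without background correction, 5 without a detection filter, 5 with only the compared groups fitted and 6 with a trended and robust variance, and leaving out 1 array gave 5 to 11. In SCI+CDTX against Sham+CDTX (1), 4 were called with only the compared groups fitted, 4 had a p-value under 0.05 in the authors' deposited table (correction unknown), 2 with the probe score as a covariate and 2 without the saline arrays of highest neutrophil sum, and leaving out 1 array gave 1 to 2, with 2 without SCI+Saline replicate 4 or Sham+CDTX replicate 4. Among values called with or without it, the probe score turned 4. They were Apoe (-1.67), Itgb5 (-0.22) and Ctss (0.22) in SCI+CDTX against Sham+CDTX, and Itgb5 in Sham+CDTX against Sham+Saline (1.62). The fit with the score rests largely on SCI+CDTX replicate 2, and the cause was not tested. The score also turned Tyrobp (-0.45), Lgals3 (-0.21) and Ms4a6d ILMN_2602352 (-0.43), called in neither fit, in SCI+CDTX against Sham+CDTX. Same-numbered samples deviated together about as much as others. The median r was -0.02 over 21 same-numbered pairs (range -0.27 to 0.38) and 0.01 over 63 other pairs (-0.28 to 0.32). These values cannot show whether the samples were paired by number. The fit with the replicate block called 10 and 1 member probes. Fabp5 ILMN_2685290 and Cd36, near background, allow no statement.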

Other observations

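Markers of other cells of the muscle differed with SCI as well, where 14.8% of all probes were called higher and 14.6% lower in saline muscle and 14.9% each way in CDTX muscle. In SCI+Saline against Sham+Saline, limma called 2 of 3 muscle precursor markers higher, the myogenic factors Myog (3.34, adjusted p = 4.11e-10) and Myod1 (2.62, adjusted p = 1.67e-07). Of 6 endothelial markers 5 were lower, among them Cdh5 (-0.94), and of 7 fibroadipogenic progenitor markers 3 were lower. Of 10 muscle fibre markers 2 were lower (Myh2 at -1.83 and Myh1 at -0.55), 1 of 5 adipocyte markers was lower (Lep, -1.44), and the 4 lymphocyte markers lay between -0.10 and 0.13 without a call.

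With CDTX, the SCI group had higher levels than the sham group of 3 of 4 lymphocyte markers (Cd79b at 1.31, Cd3e at 0.93 and Cd3g at 0.84), 4 of 5 adipocyte markers and 2 of 6 endothelial markers (Cldn5 at 2.24). Fibroadipogenic progenitor markers gave 1 higher and 3 lower call (Col1a1 at -1.90), muscle fibre markers 2 lower, and muscle precursors 1 higher (Myog, 1.23). The part of these cells in the members' levels was not tested. These genes were named after their values were seen.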
